A study of Mus musculus with 4 samples.

Results

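Trem2-high macrophages were taken here as cardiac macrophages in which at least 2 unique molecules (UMIs) of Trem2 mRNA were counted. A cell counted as a macrophage when it held at least 8 UMIs of C1qa, C1qb and C1qc together, the subunits of complement C1q, at most 2 UMIs of the B cell genes Cd79a, Cd79b and Ms4a1 together, and at most 1 of the T cell genes Cd3e, Cd3d and Cd3g. There were 292 such cells among 967 macrophages (30.2%) and 11148 leukocytes (2.62%), 247 of them from DOCA-salt hearts and 45 from sham hearts. They held 1155 of the 1810 Trem2 UMIs counted in all leukocytes (63.8%). The cells were thus chosen by their Trem2, C1q, B cell and CD3 UMIs, and these values are given as a description. The cells were set against macrophages without a Trem2 UMI, called Trem2 0 macrophages below, paired within each mouse for like depth.

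The cells came from the left ventricles of C57Bl6J mice given DOCA-salt, in which deoxycorticosterone acetate, a mineralocorticoid, is combined with salt to raise blood pressure, or a sham treatment. The dose, duration, age and sex are not given in the sources used here. Each group held 4 mice, told apart by hashtag antibodies, and the 4 mice of a group were pooled before CD45+ leukocytes were sorted and sequenced. Each group is therefore 1 library, and every difference between groups cannot be told apart from a difference between libraries.

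TREM2 is a surface receptor of macrophages and microglia that binds lipids, apolipoproteins and cell debris. It signals through the adaptor TYROBP (DAP12) and the kinase SYK, and its ectodomain is shed by ADAM proteases. In fatty tissue, atheroma and brain, cells with much Trem2 are known for genes of lysosomes and lipid handling, such as Apoe, Ctsb, Ctsd, Lpl, Gpnmb and Spp1. In the heart, macrophages are commonly divided into resident-type cells, with Lyve1, Folr2 and Timd4, and monocyte-derived cells, with Ccr2.

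Macrophage markers that the rule did not use were abundant. Summed over 7 such genes (Csf1r, Adgre1, Fcgr1, Mertk, Cd68, C5ar1 and Lyz2), the level per mouse was 18457 to 23686 CPM (UMIs of the genes per 1000000 UMIs of the cells) in DOCA-salt and 17045 to 24901 CPM in sham Trem2-high cells, against 12699.7 to 17123 CPM in DOCA-salt and 11595 to 17042 CPM in sham Trem2 0 macrophages. Csf1r, the receptor for the macrophage growth factor CSF1, was found in 97.2% of DOCA-salt and 100% of sham Trem2-high cells, against 88.7% and 90.1% of Trem2 0 macrophages. Surface CD64, the Fc receptor encoded by Fcgr1, had a median of 1233 antibody UMIs per Trem2-high cell in DOCA-salt hearts and 1302 in sham hearts, against 89.0 and 127 in B cells of the same libraries. Of the 4 genes that name the population, Trem2 and C1qa were used to choose it, and Apoe and Ctsd were not. A UMI of Apoe was found in 98.0% of DOCA-salt and 100% of sham Trem2-high cells, against 96.1% and 94.8% of the shallower Trem2 0 macrophages. A UMI of Ctsd was found in 90.3% and 66.7%, against 65.8% and 40.8%. These shares take no account of the difference in depth.

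Trem2 itself summed to 548 to 709 CPM per DOCA-salt mouse and 523 to 669.8 CPM per sham mouse in the Trem2-high cells. The highest cell held 19 Trem2 UMIs in the DOCA-salt library and 5 in the sham library. At the threshold, 88 DOCA-salt and 23 sham cells held exactly 2 Trem2 UMIs, at 372 and 460.5 CPM, and 155 DOCA-salt and 45 sham macrophages just outside held 1, at 230.4 and 277 CPM. A further 70 leukocytes with at least 2 Trem2 UMIs failed the macrophage rule, 41 of them with fewer than 8 C1q UMIs, 30 with more than 2 B cell UMIs and 9 with more than 1 CD3 UMI. In B cells, which should lack Trem2, at least 2 UMIs were found in 0.135% of 2961 DOCA-salt cells (95% Clopper-Pearson interval 0.0368 to 0.346) and 0.0451% of 2217 sham cells (0.00114 to 0.251), at median depths of 2994 and 2668 UMIs. Macrophages had median depths of 3982 and 3114 UMIs. Intervals here cover counting error only.

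Several technical values moved with the choice of cells. Trem2-high cells were deeper, with a median of 5291 UMIs in DOCA-salt hearts and 4487 in sham hearts, against 2648 and 2203 in Trem2 0 macrophages. DOCA-salt mouse 1 supplied 59.5% of the DOCA-salt Trem2-high cells (147 cells, against 46, 17 and 37 in mice 2 to 4), and sham mice supplied 6, 13, 8 and 18. Scrublet called 5 DOCA-salt and 0 sham Trem2-high cells doublets. The libraries shared 41 cell barcodes, 1 of them a Trem2-high cell. Pairing on depth gave 222 pairs, 178 in DOCA-salt hearts and 44 in sham hearts. The match was incomplete in 3 DOCA-salt mice, with medians of 4256, 5078 and 3454 UMIs in the Trem2-high cells of mice 1, 2 and 3, against 3345, 4275 and 2808 in their partners.

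Natural killer (NK) and neutrophil transcripts were present in the macrophages, and more so in the Trem2 0 cells. Summed over 10 NK cell markers, the level per mouse was 39.7 to 841 CPM in DOCA-salt and 0 to 1292 CPM in sham Trem2-high cells, against 109 to 4306 CPM and 83.8 to 7390.4 CPM in Trem2 0 macrophages. Summed over 8 neutrophil markers it was 52.7 to 654 CPM and 0 to 47.5 CPM in Trem2-high cells, against 94.3 to 13406 CPM and 20.9 to 59.0 CPM in Trem2 0 macrophages. In Trem2-high cells the NK factor gene Eomes was at 0 in DOCA-salt mice, and the neutrophil genes S100a8, S100a9, Retnlg, Mmp8, Cxcr2 and G0s2 were at 0 in sham mice. The part of these transcripts in the results below was not tested beyond leaving such cells out. Cells with more than 2 UMIs of the T, NK and neutrophil markers together numbered 22 and 1 among DOCA-salt and sham Trem2-high cells, and 38 and 17 among Trem2 0 macrophages. The comparisons of summed UMIs below were repeated without these cells, gene by gene. Counts over the named gene lists below include these cells.

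At the cells' own depth, Trem2-high cells made up more of the macrophages in DOCA-salt hearts. Their share was 46.4%, 27.9%, 31.5% and 24.7% in the 4 DOCA-salt mice, against 18.8%, 14.1%, 14.3% and 17.8% in the 4 sham mice. Every DOCA-salt mouse lay above every sham mouse. The means were 32.6% ± 9.59 in DOCA-salt mice and 16.2% ± 2.39 in sham mice (SD, n = 4 each), a difference of 16.4 percentage points (two-sided exact permutation p = 0.029, the smallest that 4 against 4 allows). DOCA-salt macrophages were also deeper. With every macrophage thinned to 2000 UMIs and shallower ones left out, which kept 539 DOCA-salt and 184 sham cells, the share was 20.5%, 15.8%, 21.1% and 10.6% in DOCA-salt mice, against 15.8%, 10.3%, 8.57% and 9.72% in sham mice. The groups then overlapped, with means of 17.0% ± 4.86 and 11.1% ± 3.21, a difference of 5.90 percentage points (exact permutation p = 0.0571, two-sided, n = 4 each). The difference at equal depth did not pass the threshold. As a share of all leukocytes, Trem2-high cells averaged 3.24% ± 2.28 in DOCA-salt mice and 1.09% ± 0.345 in sham mice, again without overlap (exact permutation p = 0.029). That share, too, was taken at the cells' own depth and not at equal depth.

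**Figure D1:**
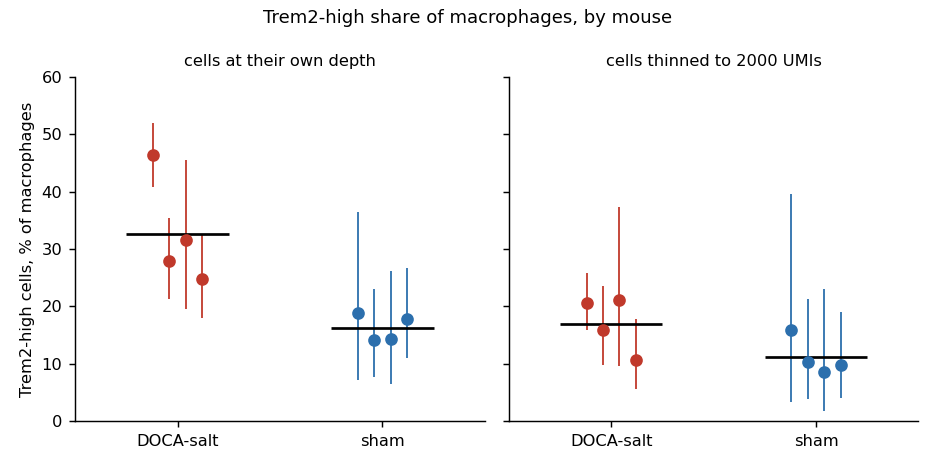
Trem2-high cells as a percentage of macrophages (vertical axis) in each DOCA-salt and sham mouse (points, with 95% Clopper-Pearson intervals for counting error; horizontal bar, mean of 4 mice), at the cells' own depth and after thinning to 2000 UMIs. At their own depth the DOCA-salt mice sit between 24.7% and 46.4%, all above the sham mice, and after thinning the lowest DOCA-salt mouse (10.6%) lies within the sham range of 8.57% to 15.8%.

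At matched depth, Trem2-high macrophages held more mRNA of Apoe, the apolipoprotein that binds TREM2 and carries lipid out of macrophages, and of Rnase4, a secreted ribonuclease, and less of Rac2, a small GTPase of blood cells. These were the 3 of 997 genes past an adjusted p of 0.05 (edgeR's quasi-likelihood test on UMIs summed per mouse, mouse as block, Benjamini-Hochberg adjustment), or 0.301% of the genes tested, with 0.201% higher and 0.100% lower. At an unadjusted p under 0.05 there were 111 genes (11.1%). Without T, NK and neutrophil marker cells 2 of 962 genes passed (0.208%, with 5.72% at an unadjusted p under 0.05), Rnase4 higher (0.104%) and Ahnak, a large scaffold protein, lower (-0.68, adjusted p = 0.0485; 0.104%).

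Apoe stood at 19347, 15199.9, 27671 and 20249.5 CPM in the Trem2-high cells of DOCA-salt mice 1 to 4, against 9607, 10291, 16969 and 12764 CPM in their Trem2 0 partners. In sham mice it was 8786, 10835, 12095 and 14260.3 CPM in Trem2-high cells, against 6044, 10262, 6666 and 9344 CPM. Apoe was higher in the Trem2-high cells of all 8 mice, with the smallest gap in sham mouse 2. The log2 difference was 0.62 (SE 0.11, adjusted p = 0.0208). Without T, NK and neutrophil marker cells the change was 0.52 and missed the threshold (adjusted p = 0.0580). Without DOCA-salt mouse 1, 2 or 4 in turn it was 0.57, 0.62 and 0.61 and also missed (adjusted p = 0.0657, 0.0860 and 0.118). The call was lost as well with at most 5% mitochondrial UMIs (0.65, adjusted p = 0.0842), without the mouse as a block (0.61, 0.293), and, at smaller differences, without depth matching (0.34, 0.110) or with partners holding up to 1 Trem2 UMI (0.35, 0.225). With the threshold at 3 Trem2 UMIs it was 0.62 (0.531).

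Rnase4 stood at 425, 499, 463 and 574 CPM in DOCA-salt Trem2-high cells, against 167, 211, 399.6 and 216 CPM in their partners. In sham mice it was 276, 317, 219 and 407 CPM, against 156, 134, 34.2 and 242 CPM. It was higher in the Trem2-high cells of all 8 mice, by 1.16 on the log2 scale (SE 0.17, adjusted p = 0.00493), and it stayed past the threshold without T, NK and neutrophil marker cells (0.94, adjusted p = 0.0395). Its call was lost without DOCA-salt mouse 1, 2 or 4 (adjusted p = 0.0657, 0.0860 and 0.0920), at changes of 1.08 to 1.11. Of the alternative settings that kept all mice, only the fit without the mouse as a block ended its call.

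Rac2 stood at 436, 239, 232 and 258 CPM in DOCA-salt Trem2-high cells, against 595, 422, 277 and 579 CPM in their partners. In sham mice it was 276, 206, 345 and 291 CPM, against 389.9, 485, 752 and 411 CPM. It was lower in the Trem2-high cells of all 8 mice, its log2 difference being -0.77 (SE 0.15, adjusted p = 0.0363). Without T, NK and neutrophil marker cells the change shrank to -0.29 (adjusted p = 0.859), and without DOCA-salt mouse 1, 2 or 4, or sham mouse 3, the call was lost at -0.70 to -0.86 (adjusted p = 0.0622 to 0.238). It was lost too without doublets (-0.74, 0.0703), with at least 20 C1q UMIs (-0.43, 0.568), at 3 Trem2 UMIs (-0.82, 0.116), with partners holding up to 1 Trem2 UMI (-0.60, 0.144) and without the mouse as a block (-0.76, 0.256).

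Tyrobp, which encodes the adaptor that TREM2 needs to signal, did not pass the threshold. It stood at 2742, 2555, 2634 and 2762 CPM in DOCA-salt Trem2-high cells, against 2644, 2822, 2121 and 2695 CPM in their partners, and in sham mice at 3231, 2788, 2507 and 3003 CPM, against 3198, 2524, 2769 and 2780.2 CPM. The log2 change over all 8 mice was 0.04 (SE 0.09, adjusted p = 0.920). Of 16 genes for TREM2's partners, signalling and shedding, 7 were measured, 6 of them above 0 with 0 past the threshold, and the median change was 0.18, against 0.02 over all genes tested. The 3 members of the MS4A family of membrane proteins, which human genetics has tied to soluble TREM2, gave the largest values, with Ms4a7 at 0.76 (adjusted p = 0.191), Ms4a6d at 0.70 (0.201) and Ms4a4a at 0.48 (0.547).

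**Figure D2:**
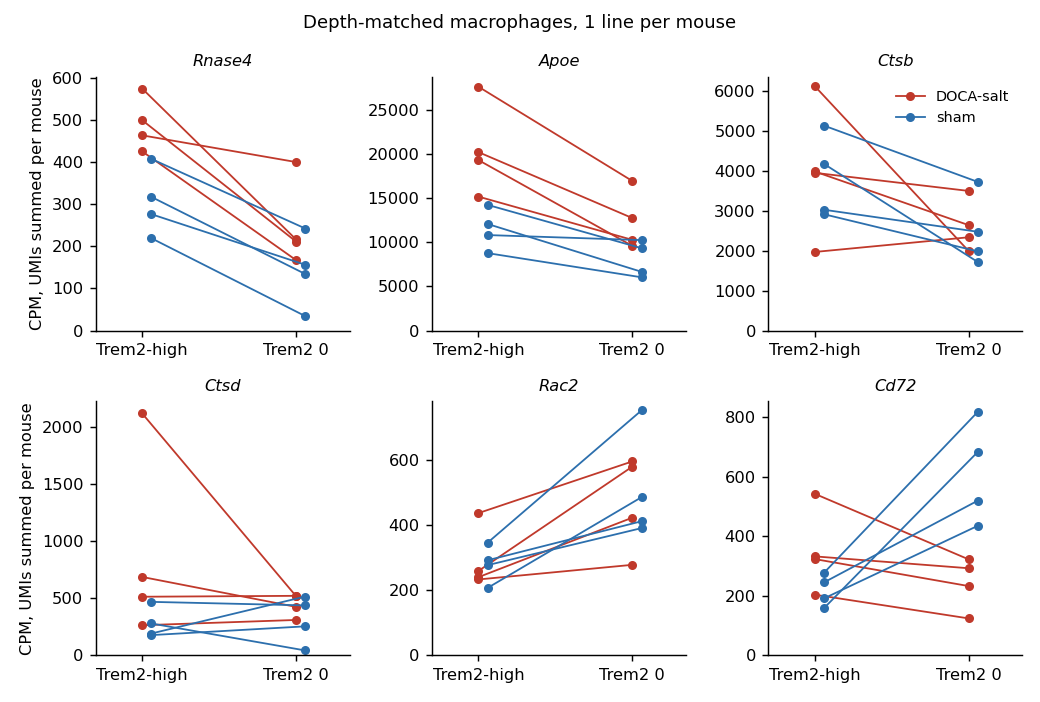
UMIs summed per mouse, in CPM (vertical axis, from 0), of 6 genes in Trem2-high and depth-matched Trem2 0 macrophages, 1 line per mouse, DOCA-salt in red and sham in blue. Rnase4 and Apoe fall toward the Trem2 0 side in all 8 mice and Rac2 climbs in all 8; Ctsd is set apart by 1 DOCA-salt mouse (2122 CPM), and Cd72 runs in opposite directions in the 2 groups.

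Genes of the lysosome, the compartment where ingested material is broken down, lay above 0 as a group, with none past the threshold singly. Of 28 listed, 22 were measured and all 22 were higher in Trem2-high cells, at a median log2 change of 0.28, where 53.7% of all genes tested were above 0 and their median was 0.02. General macrophage markers lay as far above 0, with 7 of 7 measured above 0 and a median of 0.28. Among the largest lysosomal values were the protease Ctsb at 0.60 (adjusted p = 0.123), Grn, which encodes the lysosomal glycoprotein progranulin, at 0.58 (0.154) and the protease Ctsl at 0.56 (0.201). Ctsb stood at 6126, 3951, 1968 and 3985 CPM in DOCA-salt Trem2-high cells, against 1994, 3497, 2336 and 2641 CPM in their partners. In sham mice Ctsb was at 4176, 3026, 2914 and 5134 CPM, against 1716, 2474, 1983 and 3723 CPM. Ctsb was thus higher in 7 of 8 mice, with the widest gap in DOCA-salt mouse 1 and the exception DOCA-salt mouse 3.

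Ctsd, an aspartic protease of the lysosome and 1 of the genes used to name the population, depended on 1 mouse. It stood at 2122, 685, 260.5 and 511 CPM in DOCA-salt Trem2-high cells, against 516, 422, 307 and 519 CPM in their partners, and in sham mice at 276, 174, 188 and 466 CPM, against 39.0, 251, 513 and 435 CPM. Only DOCA-salt mice 1 and 2 and sham mice 1 and 4 had more Ctsd in their Trem2-high cells. The log2 change was 0.53 (SE 0.30, adjusted p = 0.547), and in sham mice alone it was -0.17 (adjusted p = 0.988).

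Lysosomal promoters are known for an E-box bound by the factor TFEB, and the promoters of 2 listed genes are shown with it as background. The letters GTCACGTG, on either strand, occurred within the 250 bases before the start of 5 of the 22 lysosomal genes with a promoter on record (Ctsa, Ctsd, Lgmn, Lamp1 and Glb1) and of 571 of 27025 genes in all (2.11%). The overlapping palindrome TCACGTGA occurred in 2 of the 22 (Ctsa and Ctsd) and in 0.91% of all genes. The windows below are from RefSeq on build GRCm38.p6, 5′ to 3′ on the gene's strand, at chr7:142387828-142388077 (minus strand) for Ctsd and chr12:102439093-102439342 (minus strand) for Lgmn, a lysosomal endopeptidase. Capitals mark GTCACGTG or its reverse complement, which Ctsd held at 2 places and Lgmn at 1. A match describes the letters and is not a measured binding site, and its part in the levels above was not tested. The 22 genes here are those of the 28 listed with a promoter on record, whether or not they were measured.
Ctsd: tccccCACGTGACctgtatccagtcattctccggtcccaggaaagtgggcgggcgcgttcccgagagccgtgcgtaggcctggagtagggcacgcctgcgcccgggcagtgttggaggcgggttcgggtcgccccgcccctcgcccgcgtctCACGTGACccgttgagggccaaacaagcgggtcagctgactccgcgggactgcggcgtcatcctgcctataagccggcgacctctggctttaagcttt
Lgmn: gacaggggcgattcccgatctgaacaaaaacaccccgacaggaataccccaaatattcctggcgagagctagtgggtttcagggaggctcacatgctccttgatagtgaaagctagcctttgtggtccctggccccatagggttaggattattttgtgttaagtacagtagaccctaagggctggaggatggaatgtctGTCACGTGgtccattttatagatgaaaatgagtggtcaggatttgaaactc

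Several other lists of phagocyte function lay mostly above 0, without calls beyond Apoe, and others did not. Some lists share genes, so their counts are not independent. Ctsb and Ctsl stand in the lysosome and lipid-associated lists, and Stab1 in the phagocytosis and resident-type lists. Complement genes other than C1q had 2 of 4 above 0 (median 0.05), and inflammatory mediators 2 of 5 (median -0.02). All 8 measured lipid handling genes were above 0 (median 0.23, 1 called), with Lipa, the lysosomal lipase, at 0.59 (adjusted p = 0.258) and Lpl, lipoprotein lipase, at 0.46 (0.781). Of 21 genes of the lipid-associated macrophage programme 13 were measured and 12 were above 0 (median 0.31), the exception being the chemokine Ccl4 at -1.03 (0.433). All 9 measured phagocytosis and efferocytosis genes were above 0 (median 0.23), led by the Fc receptor genes Fcgr1 at 0.87 (0.0748) and Fcgr3 at 0.42 (0.116) and by the scavenger receptor Stab1 at 0.70 (0.0919). All 6 iron and haem genes were above 0 (median 0.32), with the ferritin chains Fth1 at 0.39 (0.112) and Ftl1 at 0.41 (0.167). Hmox1, which degrades haem, was at 1.58 (adjusted p = 0.0515) and rested on DOCA-salt mouse 2, with 1808 CPM in its Trem2-high cells and 227 CPM in their partners.

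In the fit over all 8 mice, gene groups that mark macrophage origin and activation had no member past the threshold. Of 14 measured resident-type genes 13 were above 0 (median 0.27, 0 called), with Lyve1 at 0.58 (SE 0.42, adjusted p = 0.702) and Folr2 at 0.57 (SE 0.37, 0.632). Of 6 monocyte and recruited-type genes 3 were above 0 (median 0.02), with Ccr2, the receptor that brings monocytes into tissue, at 0.33 (0.735). Of 6 measured MHC class II genes, which present antigen to T cells, 2 were above 0 (median -0.02), and H2-Aa was at -0.04 (SE 0.12, adjusted p = 0.945). Early response genes, which dissociation can induce, had 8 of 15 above 0 (median 0.08). All of these counts stand beside 53.7% of all genes tested above 0.

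**Figure D3:**
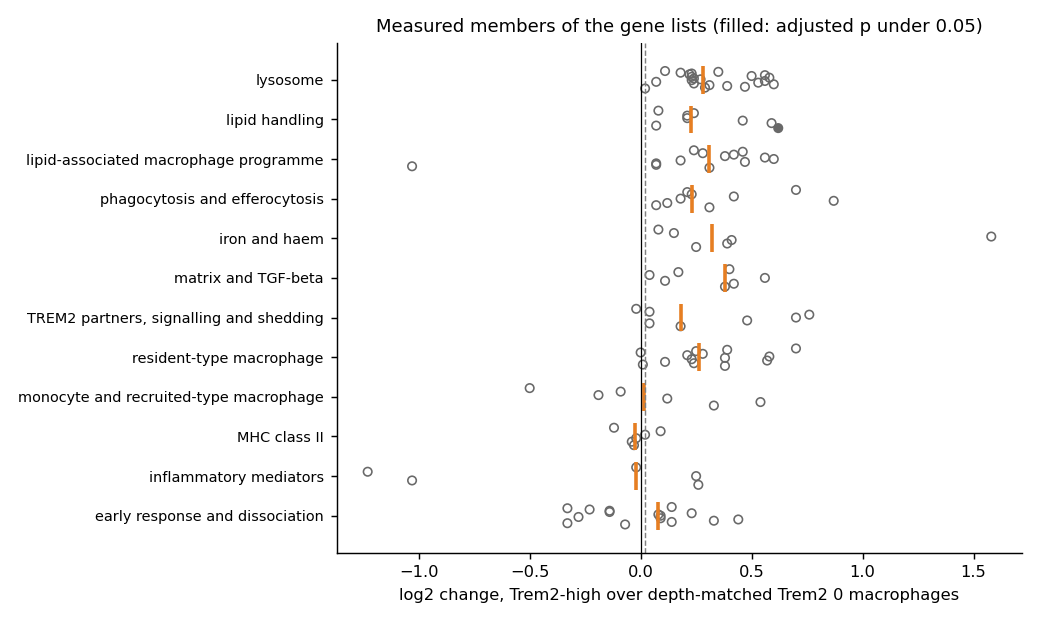
Log2 change of Trem2-high over depth-matched Trem2 0 macrophages (horizontal axis) for the measured members of 12 gene lists (circles, filled where adjusted p is under 0.05; orange bar, list median; dashed line, median of all 997 genes, 0.02). The lysosome list lies wholly to the right of 0 with a median of 0.28, the MHC class II list straddles 0, and the filled circle in the lipid handling list is Apoe.

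Within DOCA-salt mice alone, where more cells were available, 56 of 3019 genes (1.85%) had an adjusted p under 0.05, of which 34 were higher (1.13%) and 22 lower (0.729%) in Trem2-high cells; 10.7% were under 0.05 unadjusted. The higher genes included Rnase4 (1.25) and Apoe (0.77), the microglia and macrophage genes Cx3cr1 (1.03, the fractalkine receptor), Fcrls (1.0) and Tmem119 (1.74), the Fc receptor gene Fcgr1 (1.03), the chemokines Ccl2 (1.02), Ccl7 (1.36) and Ccl12 (1.12), the MS4A member Ms4a7 (1.13), the phospholipases Pld3 (0.98) and Pla2g15 (0.95) of the lysosome, Nrp1 (1.16), Anxa3 (1.05), Clec12a (0.99), Creg1 (0.97) and Rtp4 (1.0), and Hmox1 (2.01). Among the lysosome genes, 25 of 25 measured were above 0 (median 0.48, where 50.3% of all genes were above 0) and 2 passed, Grn at 0.70 among them. Of 8 measured interferon response genes all 8 were above 0 (median 0.72), with Ifit3 at 1.46 called. Over all 8 mice only 2 genes of that list were measured, 2 of them above 0, and in sham mice 1 of 2 was above 0. Of 8 measured monocyte and recruited-type genes 2 were above 0 (median -0.21), with Ly6c2 (-2.62) and S100a6 (-0.76) called lower. Of 16 measured resident-type genes 12 were above 0 (median 0.18), with Stab1 (0.87) called higher. Of 10 measured inflammatory mediators 5 were above 0 (median 0.16), with Il1b (-2.43) called lower and the 3 chemokines above called higher.

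The lower genes were led by transcripts of other leukocytes. Ccl5 (-5.32), Gzma (-4.19) and Prf1 (-3.70) encode a chemokine and killing proteins of NK and T cells, and S100a8 (-4.07) and S100a9 (-3.49) encode the calprotectin subunits of neutrophils. Of 10 NK markers 3 were measured and of 8 neutrophil markers 2, and all of these were called lower. Markers scarce in Trem2-high cells could pass the low-count filter mainly through the Trem2 0 arm. Their direction was thus likely beforehand and is no separate support. Besides Ly6c2 and Il1b, the other lower genes included Gimap6 (-2.59), Hcst (-1.57), Id2 (-1.31), Cytip (-1.29), Tmsb10 (-1.16), Ezr (-1.03), Il2rg (-1.01) and Gstp1 (-0.90). Ccl5 stood at 15, 13.3, 28.9 and 105 CPM in Trem2-high cells, against 1538, 1380.3, 61.5 and 1634 CPM in their partners. S100a8 stood at 10.7, 119, 0 and 0 CPM, against 699, 252, 7501 and 5.41 CPM. Each transcript was thus high in some of the Trem2 0 arms, S100a8 mainly in that of DOCA-salt mouse 3.

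After T, NK and neutrophil marker cells were removed from both arms and pairs were made again, 0 of 2573 genes passed in DOCA-salt mice, with 162 at an unadjusted p under 0.05 (6.30%) and 52.0% above 0. Of the 34 higher genes 32 were still tested and all 32 stayed above 0, with a median log2 change of 0.68 over these, where the 34 had 0.98 before. Of the 22 lower genes 12 were still tested and all 12 stayed below 0, with a median of -0.62, where the 22 had -1.30 before. Both sets were chosen in mostly the same cells, so kept signs were likely beforehand and are no separate support. Il1b was then at -1.76 (adjusted p = 0.490) and Tmsb10 at -0.63 (0.359), while Ly6c2, Gimap6, Hcst and Id2 were no longer tested. Among the higher genes Tmem119 and Ifit3 were no longer tested, and they were not tested without DOCA-salt mouse 1 either. Apoe was then at 0.72 (adjusted p = 0.0570), Rnase4 at 1.08 (0.0769) and Grn at 0.62 (0.395), while Hmox1 was at 0.16 (0.959), Ccl7 at 0.15 (0.980), Ccl12 at 0.48 (0.905), Ccl2 at 0.73 (0.490) and Rac2 at -0.29 (0.883). C1q transcripts, before that removal, were at 22619 CPM in the DOCA-salt Trem2-high cells, against 15204 CPM in their Trem2 0 partners, and at 21829.6 CPM in the sham Trem2-high cells, against 21239.9 CPM in theirs. Without DOCA-salt mouse 1, 10 of 3044 genes passed (0.329%), 2 higher (Hmox1 and Rnase4, 0.0657%) and 8 lower (0.263%). Ly6c2 (-2.64) and Tmsb10 (-1.29) were among these 8.

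In sham mice alone 0 of 633 genes passed, with 36 at an unadjusted p under 0.05 (5.69%). Apoe was at 0.51 (adjusted p = 0.756), Rnase4 at 1.06 (0.632) and Rac2 at -0.85 (0.632), and 16 of 21 lysosome genes were above 0 (median 0.10, against -0.01 over all genes, 48.5% of which were above 0). Monocyte and recruited-type genes, mostly below 0 in DOCA-salt mice, had 5 of 5 above 0 in sham mice (median 0.49, 0 called). MHC class II genes had 5 of 6 above 0 in sham mice (median 0.04), against 0 of 7 in DOCA-salt mice (median -0.08). Whether the Trem2-high difference itself differed between the groups was tested for 1330 genes with an arm by group term. For Apoe the difference was 0.23 (SE 0.22, adjusted p = 0.988), for Rnase4 0.15 (SE 0.38, 1.0) and for Rac2 0.12 (SE 0.32, 1.0). For the monocyte and recruited-type list 0 of 6 measured genes were above 0 (median -0.91), with 0 past the threshold.

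The 1 gene past that test was Cd72 (0.0752% of the genes tested, with 5.41% at an unadjusted p under 0.05 and 51.3% above 0), an inhibitory lectin receptor known from B cells and also made by macrophages. Cd72 stood at 543, 323, 203 and 332 CPM in DOCA-salt Trem2-high cells, against 322, 232, 123 and 292 CPM in their partners. In sham mice it stood at 276, 190.1, 157 and 244 CPM in Trem2-high cells, against 819, 435, 684 and 519.8 CPM. It was higher in the Trem2-high cells of 4 of 4 DOCA-salt mice (0.56, adjusted p = 0.137 by edgeR within that group) and lower in those of 4 of 4 sham mice (-1.40, adjusted p = 0.279), a difference of 1.90 (SE 0.31, adjusted p = 0.0226). With cells thinned to 2000 UMIs it was 0.80 (adjusted p = 0.992), and without T, NK and neutrophil marker cells 1.76 (0.165). The call was also lost without DOCA-salt mouse 1, 2 or 4 or sham mouse 1 or 2 (1.78 to 2.05, adjusted p = 0.0522 to 0.299). Summed over 10 B cell markers, the level was 142 to 395 CPM in DOCA-salt and 253 to 428 CPM in sham Trem2-high cells, against 259 to 381 CPM and 288 to 482 CPM in Trem2 0 macrophages, and its part in the result was not tested.

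Across cells with 0, 1, 2, 3 and at least 4 Trem2 UMIs, each thinned to 2000 UMIs, the cathepsin genes stood stepwise higher in DOCA-salt mouse 1, which held 75 of the 104 DOCA-salt cells of the top class. Its Ctsd was at 444, 795, 1229.7, 1792 and 2547 CPM, while the other DOCA-salt mice had 509.5, 500.0, 556, 457 and 707 CPM and sham mice had 359, 289, 309.5, 536 and 62.5 CPM. Ctsb was likewise stepwise higher in mouse 1, at 2211, 3484, 3932, 6208 and 7460.0 CPM, against 3209.5, 3406, 4044, 3152 and 4310.3 CPM in the other DOCA-salt mice and 2602, 3263, 3333, 4536 and 3000.0 CPM in sham mice. For Ctsd no other set showed such steps, and for Ctsb the sham set did up to 3 Trem2 UMIs, at lower levels. The top sham class held 8 cells and the class below it 14, so their values rest on few UMIs.

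Grn, Rnase4 and Apoe were lowest in cells without Trem2 in all 3 sets. Grn was at 1246, 1770.5, 2122, 2479 and 2453 CPM in DOCA-salt mouse 1, 1019, 1297, 1944, 1478 and 1534 CPM in the other DOCA-salt mice and 1000, 1224, 1357, 1643 and 1562 CPM in sham mice. Rnase4 was at 239, 262, 284, 542 and 440.0 CPM in mouse 1, 190.5, 304, 478, 761 and 534 CPM in the other DOCA-salt mice and 252, 303, 262, 393 and 438 CPM in sham mice, with its highest values at 3 or more Trem2 UMIs. Apoe was lowest without Trem2 in each set, at 11309.9, 13881 and 9471 CPM. These levels pool the cells of a group, with no test, and deeper cells fall more often into the higher classes before thinning.

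**Figure D4:**
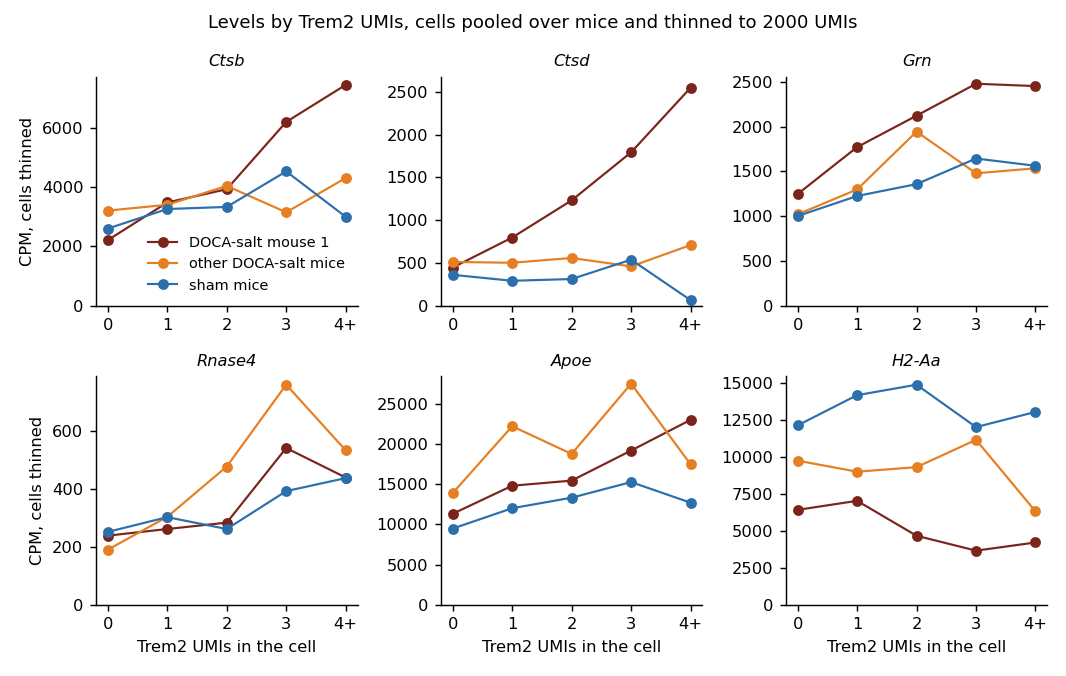
Level in CPM (vertical axis, from 0) of 6 genes against the Trem2 UMIs counted in the cell (horizontal axis), for cells thinned to 2000 UMIs and pooled over DOCA-salt mouse 1 (dark red), the other 3 DOCA-salt mice (orange) and the 4 sham mice (blue). In DOCA-salt mouse 1 Ctsd and Ctsb are highest in the top class, at 2547 and 7460.0 CPM, and Grn, Rnase4 and Apoe are lowest at 0 Trem2 UMIs in each set.

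Shares of cells with a UMI, taken in 199 pairs thinned to 2000 UMIs, gave 0 of 24 genes past an adjusted p of 0.05 (two-sided exact sign-flip test over 8 mice, which allows no p under 0.00781). Rnase4 was found in 59.7% of DOCA-salt and 39.2% of sham Trem2-high cells, against 23.5% and 17.3% of their partners, as means over mice, higher in 7 of 8 mice (exact p = 0.0156, adjusted p = 0.125). Ms4a7 was found in 51.6% and 53.2%, against 33.9% and 33.1% (7 of 8 mice, exact p = 0.0156, adjusted p = 0.125). Fcgr1, Stab1 and Igf1, a growth factor of resident macrophages, were each higher in 6 or 7 of 8 mice (exact p = 0.0312, adjusted p = 0.125). Gpnmb, a lysosomal glycoprotein typical of lipid-laden cells, was near absent, in 1.41% of DOCA-salt and 0% of sham Trem2-high cells, against 0.704% and 0%.

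Surface proteins gave 0 of 16 antibodies past the threshold between the arms. Galectin-3, the lectin encoded by Lgals3, had the smallest p, with 2.70%, 1.04%, 1.45% and 1.84% of surface-antibody UMIs on the Trem2-high cells of DOCA-salt mice, against 1.97%, 1.15%, 1.36% and 1.26% on their partners. In sham mice it was 1.38%, 6.62%, 2.02% and 1.53%, against 1.11%, 1.42%, 2.0% and 1.46%. It was higher on Trem2-high cells in 7 of 8 mice, by far the most in sham mouse 2, where other antibodies were also higher on the Trem2-high cells (CD4 2.25%, against 0.518%, and TIGIT, a T and NK cell receptor, 2.69%, against 0.775%). Over all mice galectin-3 had a mean log2 ratio of 0.446 ± 0.753 (SD, n = 8; exact sign-flip p = 0.0547, adjusted p = 0.656). CD64 had a mean log2 ratio of 0.116 ± 0.327 and CD11b, an integrin of myeloid cells, 0.0110 ± 0.0922 (SD, n = 8 mice; exact adjusted p = 0.716 and 0.875).

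Among the Trem2-high cells themselves, DOCA-salt and sham mice were compared over 1200 genes, and 0 passed (0%, by edgeR and by DESeq2), with 91 at an unadjusted p under 0.05 by edgeR (7.58%) and 69 by DESeq2 (5.75%). The values below are therefore levels and not calls. Groups of mice did not overlap for 30 genes that were higher in DOCA-salt cells (2.50%) and 32 that were lower (2.67%).

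MHC class II transcripts stood lower in DOCA-salt Trem2-high cells. All 6 measured genes of the list lay below 0, each without overlap between the groups, at a median log2 change of -0.88 (median of all genes -0.01). H2-Aa, an alpha chain, stood at 4838, 8501, 7363 and 9055 CPM in DOCA-salt mice, against 13475, 11057, 17314 and 13085 CPM in sham mice, a log2 change of -0.93 (SE 0.23, adjusted p = 0.326). Cd74, the invariant chain, was at 17186, 31938, 30639 and 36035 CPM, against 52283, 39651, 63947 and 51651 CPM (-0.89, SE 0.25, adjusted p = 0.339). H2-DMb1, which helps load peptide, was at -0.92, H2-Eb1 at -0.88, H2-Ab1 at -0.78 and H2-DMa at -0.78 (adjusted p = 0.326 to 0.339), the last separated narrowly, by 632 CPM in the highest DOCA-salt mouse and 634 CPM in the lowest sham mouse. DOCA-salt mouse 1 had the lowest value of each, and without it H2-Aa was at -0.72 (adjusted p = 0.424). In Trem2 0 macrophages the list's median was -0.32, where 50.1% of all genes were above 0, with H2-Aa at -0.52 (adjusted p = 0.414) and overlapping groups. The arm by group term for the 6 genes had a median of -0.12 with 0 past the threshold.

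MHC class II promoters are known for a Y box bound by the factor NF-Y, and those of H2-Aa and H2-Eb1, a beta chain, are shown with it. The letters CTGATTGG, on either strand, occurred within the 250 bases before the start of 3 of the 6 MHC class II genes with a promoter on record (H2-Aa, H2-Eb1 and H2-Oa) and in 4.43% of all 27025 genes. The windows are from RefSeq on build GRCm38.p6, 5′ to 3′ on the gene's strand, at chr17:34287824-34288073 (minus strand) and chr17:34305617-34305866 (plus strand). Capitals mark CTGATTGG, which began 51 bases before the start of H2-Aa and 62 bases before that of H2-Eb1.
H2-Aa: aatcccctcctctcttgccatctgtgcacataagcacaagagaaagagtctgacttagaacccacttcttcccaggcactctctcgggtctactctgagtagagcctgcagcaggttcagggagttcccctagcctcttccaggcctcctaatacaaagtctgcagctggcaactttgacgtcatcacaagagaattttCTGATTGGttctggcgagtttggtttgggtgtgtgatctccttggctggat
H2-Eb1: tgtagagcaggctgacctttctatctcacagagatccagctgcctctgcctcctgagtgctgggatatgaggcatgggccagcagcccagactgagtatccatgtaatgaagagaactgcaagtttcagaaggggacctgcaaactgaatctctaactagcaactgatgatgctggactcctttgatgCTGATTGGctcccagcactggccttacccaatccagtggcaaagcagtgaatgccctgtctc

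Apoe and Ctsd stood higher in DOCA-salt Trem2-high cells, each with overlapping groups. Apoe was at 16606, 13598, 27621 and 20249.5 CPM in DOCA-salt mice, against 8786, 10835, 10620.1 and 14260.3 CPM in sham mice (0.76, SE 0.24, adjusted p = 0.339), with 1 sham mouse above the lowest DOCA-salt mouse. Ctsd was at 1651, 988, 297 and 511 CPM, against 276, 174, 176 and 466 CPM (1.56, SE 0.48, adjusted p = 0.339). Over the whole lysosome list 16 of 22 measured genes were above 0, at a median of 0.07, where 47.8% of all genes were above 0. In Trem2 0 macrophages, summed over the mice of a group, Apoe was at 12187 CPM in DOCA-salt and 9408 CPM in sham hearts. Ctsd was at 502 and 393 CPM there, and the median log2 change of these 2 genes was 0.46.

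**Figure D5:**
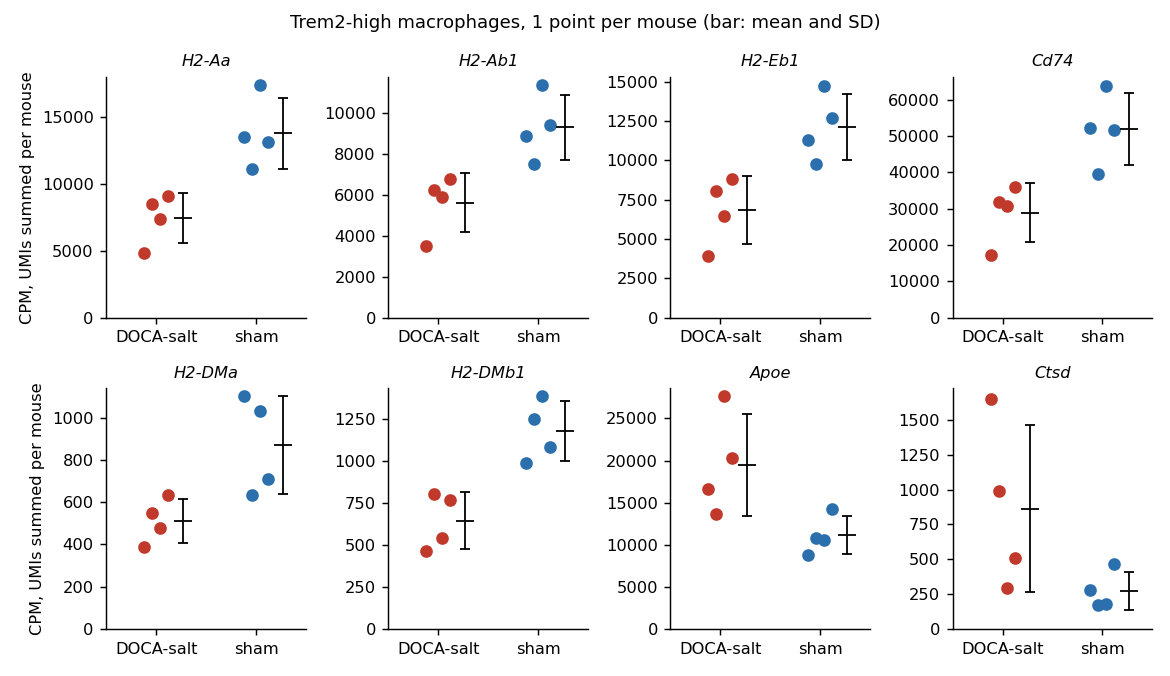
UMIs summed per mouse over Trem2-high macrophages, in CPM (vertical axis, from 0), for 6 MHC class II genes, Apoe and Ctsd, DOCA-salt mice in red and sham mice in blue (bar at the side, mean and SD of 4 mice). The 4 DOCA-salt mice lie below the 4 sham mice in each MHC class II panel, H2-Aa between 4838 and 9055 CPM against 11057 to 17314 CPM, and the groups overlap for Apoe and Ctsd.

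The non-overlapping genes with the smallest p were, among the higher ones, Fis1, a mitochondrial fission protein, Ms4a4a, Sp100, a nuclear body protein, Ctsl and Ly6e, a membrane protein induced by interferon. Ms4a4a stood at 380.5, 375, 399.7 and 343 CPM in DOCA-salt mice, against 0, 238, 50.3 and 151 CPM in sham mice (1.42, SE 0.39, adjusted p = 0.339), so that the DOCA-salt mice lay close together and the sham mice far apart. Fis1 was at 1.36, Ctsl at 1.31, Ly6e at 1.04 and Sp100 at 0.95 (adjusted p = 0.326 to 0.339). Among the lower ones were Plbd1, a phospholipase B-like protein (-0.99), Gatm, the first enzyme of creatine synthesis (-1.21), and Gmpr2, a GMP reductase (-1.13), besides H2-Aa and H2-DMb1. Plbd1 stood at 302, 296, 206 and 343 CPM, against 591, 602, 554 and 501 CPM (SE 0.20, adjusted p = 0.326). The levels in sham mice rest on 6 to 18 cells per mouse, and sums there are as low as 0 to 15 UMIs for Ms4a4a.

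Origin markers were unevenly detected among the Trem2-high cells. A cell without a UMI may still express the gene, so the shares that follow are detected shares and not cell types. Thinned to 2000 UMIs, Ccr2 without Folr2 or Lyve1 was found in 98 of 233 DOCA-salt cells (42.1%) and 4 of 43 sham cells (9.30%). Folr2 or Lyve1 without Ccr2 was found in 35 DOCA-salt (15%) and 13 sham cells (30.2%), both kinds in 9 (3.86%) and 1 (2.33%), and neither in 91 (39.1%) and 25 (58.1%). DOCA-salt mouse 1 gave 136 of the 233 DOCA-salt cells. In B cells at the same depth, Ccr2 was found in 2.41% of 2659 DOCA-salt and 0.957% of 1881 sham cells, Folr2 in 0.752% and 0.478%, and Lyve1 in 0.338% and 0.691%. By mouse, Ccr2 was found in 53.7%, 42.2%, 25% and 30.6% of DOCA-salt Trem2-high cells, against 0%, 15.4%, 14.3% and 11.8% of sham ones. The groups did not overlap, though 0 of 6 cells in sham mouse 1 allows up to 45.9% at the upper 95% Clopper-Pearson bound. Trem2 0 macrophages had Ccr2 in 35.8% of DOCA-salt and 11.7% of sham cells. On summed UMIs Ccr2 was at 0.98 (SE 0.35, adjusted p = 0.502) in Trem2-high cells and at 1.90 (SE 0.37, adjusted p = 0.0463) in Trem2 0 macrophages, where 4 of 3094 genes passed (0.129%; 7.47% at an unadjusted p under 0.05), Ccr2 and S100a4 higher (0.0646%) and Cyr61 and Tmem119 lower (0.0646%) in DOCA-salt mice. The Ccr2 call in Trem2 0 macrophages was lost without doublets (1.93, adjusted p = 0.0580), with a hashtag margin of 5 (1.97, 0.0558), and without DOCA-salt mouse 2 or 4 or sham mouse 1, 3 or 4 (1.55 to 2.08, 0.0633 to 0.141). The S100a4 call was lost without doublets (2.01, 0.0580) and without DOCA-salt mouse 1 or 2 or sham mouse 3 or 4 (1.72 to 2.0, 0.0516 to 0.140). The Cyr61 call was lost without DOCA-salt mouse 2 (-2.02, 0.0681) or sham mouse 4 (-1.97, 0.107). Tmem119 lost its call without DOCA-salt mouse 2 (-1.94, 0.0681), sham mouse 2 (-2.04, 0.0557) or sham mouse 4 (-2.26, 0.0557).

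Spp1, which encodes the matrix protein osteopontin and is a hallmark of scar and lipid-associated macrophages, was high in 1 of the 8 mice. It stood at 1193, 32.4, 0 and 5.27 CPM in the Trem2-high cells of DOCA-salt mice, against 0, 0, 50.3 and 34.9 CPM in sham mice. In the Trem2 0 macrophages of the same mice it stood at 1057, 41.5, 0 and 19.6 CPM, against 0, 27.2, 0 and 9.84 CPM. At 2000 UMIs per cell, Spp1 was found in 47.8% of the Trem2-high cells of DOCA-salt mouse 1 (95% Clopper-Pearson interval 39.2 to 56.5), against 19.7% of its Trem2 0 macrophages (11.2 to 30.9). In that mouse the summed levels were thus close while the share of cells with Spp1 was larger among Trem2-high cells. Across 723 thinned macrophages, which share libraries, mice and depth, Spp1 had a Pearson correlation of 0.25 with Trem2. This is a description over pooled cells, most of the Spp1 being in that mouse. In the 539 DOCA-salt cells it was 0.27. Spp1 was not among the most correlated genes of the 184 sham cells, which lay at 0.22 to 0.28. Gpnmb stood at 36.1 and 25.2 CPM in the Trem2-high cells of DOCA-salt mice 1 and 2, and at 0 in those of the other 6 mice. Timd4, a gene of long-lived resident macrophages, was at 8.78 to 32.4 CPM in DOCA-salt and 25.2 to 197 CPM in sham Trem2-high cells, from 1 to 9 UMIs per mouse.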

How the data were processed

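The authors' deposited matrices hold raw UMI counts per feature and cell barcode for 31053 genes and 20 antibody features, 4 of them hashtags, from 5' single-cell libraries. Per the file headers the counts come from Cell Ranger software 3.1.0, and the submitters' processing notes name Cell Ranger, Seurat 4 and mm10. The deposited barcode and feature lists hold other, text, entries without measurements. The DOCA-salt library held 7600 barcodes and 29764964 RNA UMIs, the sham library 4359 and 13304511.

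Barcodes with at least 200 genes, at most 10% mitochondrial UMIs and a top hashtag count at least 2 times the second were kept, and the hashtag gave the mouse. Trem2-high and Trem2 0 cells were paired 1 to 1 within a mouse by optimal assignment on log2 UMIs, with a caliper of 0.5. Doublets were called per library with Scrublet (scanpy 1.11.5) and removed only as an alternative. UMIs were summed per mouse and arm, filtered for low counts (filterByExpr), TMM-scaled, and tested by the quasi-likelihood method of edgeR 4.0.16 in R 4.3.3 (Benjamini-Hochberg adjustment, threshold 0.05), DESeq2 1.42.0 being an alternative. CPM values are UMIs per 1000000 of a mouse's summed UMIs. Mice with fewer than 5 cells in an arm were to be left out, and none was. The numbers of same-numbered mice pair nothing across groups; the block is the mouse that supplied both arms.

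On simulated data of the same size the test recovered 78% of genes changed 2-fold between the arms and 100% of those changed 4-fold. Between groups within Trem2-high cells it recovered 22% and 96%, within Trem2 0 cells 32% and 85%, and for the arm by group term 3% and 55%. The simulation gave every gene the same spread, with no mouse effects and no transcripts of other cell types. Recovery in the real data may thus differ.

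Genes named between the arms are Tyrobp, Apoe and Ctsd and up to 15 per direction past the threshold, with at least 50 CPM on average and the same sign in all mice but at most 1. Between groups, where no gene passed, the 5 per direction with the smallest p and no overlap are named. Up to 4 members per list are named, and the other genes were chosen after their values were seen. The cells and lists were chosen with earlier results of these data known. Some measured features are not reported here.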

Additional observations from a re-analysis of the deposited data

Results flagged for a closer look

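In Trem2-high macrophages 3 genes had 1 DOCA-salt mouse far from the other 3, by a gap test that flags about 1 in 20 groups by chance. The number of groups screened is not given here, so these 3 genes cannot be set against that rate. In each it was DOCA-salt mouse 1. Ctsl stood at 422 CPM there, against 184 to 219 CPM in the other DOCA-salt mice. Ly6e stood at 2070.3 CPM, against 1049 to 1196 CPM. Spp1 stood at 1193 CPM, against 0 to 32.4 CPM. That mouse also supplied 147 of the 247 DOCA-salt Trem2-high cells, and its part in these values was not tested further.

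Cd72 differed between the groups in how Trem2-high cells compared with their Trem2 0 partners, by 1.90 on the log2 scale (adjusted p = 0.0226, edgeR), being higher in 4 of 4 DOCA-salt mice and lower in 4 of 4 sham mice. Over 21 alternatives the difference lay between 0.80 and 2.12, and 13 of them left it short of the threshold (adjusted p from 0.00242 to 0.992).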

How the results depend on the processing

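No paired analysis was possible because no DOCA-salt mouse is tied to a sham mouse by its hashtag number; this concerns the comparisons between groups, while the 2 arms were compared within mice. Without the mouse as a replicate block, the number of genes called between Trem2-high and Trem2 0 macrophages was 0 in place of 3. That number was 5 with a hashtag margin of 5, 37 without depth matching, 10 with a caliper of 0.25, 13 with cells thinned to 2000 UMIs, 10 with DESeq2 and 144 without the low-count filter. It was 56 in DOCA-salt mice, 0 in sham mice, 0 in DOCA-salt mice without T, NK and neutrophil marker cells and 10 in DOCA-salt mice without mouse 1, the last 2 chosen after seeing the data. Leaving out each mouse in turn gave 0 to 24. It was 0 without DOCA-salt mouse 1, 2 or 4, 10 without DOCA-salt mouse 3, 8 without sham mouse 1, 24 without sham mouse 2 and 6 without sham mouse 4. In 2 alternatives the mean share of Trem2-high cells differed by 5.90 and 5.78 percentage points at 2000 and 1000 UMIs, and in 2 others by 13.3 at 4000 UMIs and 15.3 for any Trem2 UMI at 2000, none past the threshold (exact permutation p = 0.0571 to 0.114). Leaving out a mouse gave 11.8 to 19.0 (exact permutation p = 0.0571, the smallest that 3 against 4 allows).

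Between groups, Trem2-high cells gave 51 calls without the low-count filter, where the median of all genes moved from -0.01 to 0.45, and 0 to 2 with a mouse left out (2 without DOCA-salt mouse 3). Trem2 0 macrophages gave 4 calls, and 2 without doublets, 14 with at least 20 C1q UMIs, 7 with at most 5% mitochondrial UMIs, 14 without T, NK and neutrophil marker cells, 8 with DESeq2, 60 without the filter, and 0 to 13 with a mouse left out (0 without DOCA-salt mouse 2 or sham mouse 4, 13 without DOCA-salt mouse 3). The arm by group term gave 1 call, and 2 with at least 20 C1q UMIs or unmatched cells, 0 with a hashtag margin of 5, at most 5% mitochondrial UMIs, a caliper of 0.25, up to 1 Trem2 UMI in the partner arm or without T, NK and neutrophil marker cells, 10 without the filter, and 0 to 3 with a mouse left out. The cause of these changes was not tested.

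Directions reversed for Ctsd in sham mice (-0.17), Stab1 without matching (-0.02), Tyrobp between groups without the filter (0.14), CD39 in UMIs per cell (0.0545) and, with a mouse left out, CD39 (-0.0657 to 0.0225) and CD11b (-0.00635 to 0.0302), none of them past the threshold. The number of antibodies and of shares of cells called was 0 under every alternative run. Sham arms of 6 to 18 cells per mouse limit depth throughout.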

Other observations

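The 2 measured genes of a corticosteroid response list stood lower in DOCA-salt Trem2-high cells without passing the threshold. Tsc22d3, the glucocorticoid-induced leucine zipper, was at 310.3, 465, 632 and 548 CPM in DOCA-salt mice, against 512, 1362, 780.1 and 1281 CPM in sham mice (log2 change -1.14, SE 0.31, adjusted p = 0.339, edgeR), with overlap at 1 sham mouse. The other measured gene of that list, Dusp1, was at -0.56 (adjusted p = 0.999). In Trem2 0 macrophages Tsc22d3 was at 361, 456, 525 and 456 CPM, against 565, 907, 765 and 1284 CPM.

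Transforming growth factor beta genes leaned lower in DOCA-salt Trem2-high cells, with Tgfb1, the ligand, at -0.61 (adjusted p = 0.595) and its receptors Tgfbr1 at -1.03 (0.602) and Tgfbr2 at -0.49 (0.795). Of 7 measured matrix and TGF-beta genes 1 was above 0 (median -0.36), where 47.8% of all genes were above 0. Trem2 0 macrophages leaned alike, with 2 of 9 measured genes above 0 (median -0.28), where 50.1% of all genes were above 0. Il1b, an inflammatory cytokine, was at 174, 50.5, 90.3 and 15.8 CPM in the Trem2-high cells of DOCA-salt mice, against 394, 1394, 151 and 105 CPM in those of sham mice (-2.53, SE 0.72, adjusted p = 0.339), so the groups overlapped and sham mouse 2 stood apart. The share of thinned Trem2-high cells with an Il1b UMI also overlapped, at 16.2%, 8.89%, 18.8% and 2.78% in DOCA-salt mice, against 16.7%, 15.4%, 14.3% and 23.5% in sham mice. Slc11a1, a metal transporter of phagosomes, was at -0.83 (SE 0.25, adjusted p = 0.339).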
